A study of Homo sapiens with 6 samples.

Results

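The tetraspanins are small membrane proteins that cross the cell membrane with a characteristic pair of extracellular loops, and the family is described here across parental adrenocortical carcinoma cells and cells sorted from them. The members are all genes of the deposited table named TSPAN followed by a number, together with CD9, CD37, CD53, CD63, CD81, CD82 and CD151, which makes 29 of the 57341 genes. RNA was sequenced from 3 replicates of H295R, an established human adrenocortical carcinoma line, and from 3 replicates of H295R-PM-Ptc+, the cells of that line with the Hedgehog receptor Ptch1 at the plasma membrane, which were sorted with an antibody and then amplified. Both were untreated and grew in the same medium, and H295R-PM-Ptc+ is one sorted population of one line. No source used here says whether the replicates were separate cultures, so the p-values measure the spread between these libraries, which may be technical.

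The direction of every difference below depends on the labels. PTCH1, the gene of the receptor used for sorting, held 441, 559 and 579 counts in the libraries labelled H295R and 248, 326 and 319 in those labelled H295R-PM-Ptc+. The fitted difference on the log2 scale was -0.81 with a standard error (SE) of 0.147 and an adjusted p of 0.0207 by edgeR's quasi-likelihood test. It missed the threshold without H295R replicate 2 (adjusted p = 0.0799), H295R replicate 3 (0.0921) or H295R-PM-Ptc+ replicate 2 (0.0618). The direction goes against the label of a population sorted for Ptch1 protein. The supplementary table of normalized values of the study carries the 2 group names exchanged for the same 6 libraries. The counts alone cannot tell which names are right, and under the names of that table every direction given here would be reversed. The libraries are called here as the deposited table labels them, and each fold change is the level under the label H295R-PM-Ptc+ over that under the label H295R.

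Tetraspanins act by gathering other proteins, such as integrins, immunoglobulin superfamily members, proteases and receptors, into patches of membrane. Some are carried to the cell surface and regulate adhesion and migration, and others sit mainly in endosomes and lysosomes and are sorted into secreted vesicles. A subgroup called TspanC8 escorts the protease ADAM10, which sheds the outer parts of Notch, cadherins and growth factor precursors. A few members are restricted to certain cell types, such as CD37 and CD53 in leukocytes.

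Between 23264403 and 25813247 fragments were counted on genes per library. The 14 adrenocortical marker genes summed to 1052 to 1312 CPM (the count scaled to a common library size by TMM) in the libraries labelled H295R and to 1155 to 1454 CPM in the others. All but CYP11B1, which was not tested, exceeded 3 counts in a library. Of those tested, 2 passed edgeR's test, where 3.73% of all genes tested passed. They were CYP21A2 (log2 fold change 0.88, adjusted p = 0.00670) and SULT2A1 (0.60, adjusted p = 0.0306). NR5A1 (-0.06), CYP11A1 (-0.25), CYP17A1 (-0.12), MC2R (-0.07) and INHA (-0.41) had negative values, and none of these passed. Markers of other cell types were low. The fibroblast marker THY1 passed the test, with 18, 18 and 15 counts against 36, 45 and 43 (log2 fold change 1.29, adjusted p = 0.0175 by edgeR), and COL1A1 had 188 to 244 counts. The leukocyte gene PTPRC and the fibroblast gene LUM had no counts in any of the 6 libraries. The 6 leukocyte markers summed to 0.850 to 1.42 CPM against 1.77 to 2.11 CPM, the 5 endothelial markers to 0.197 to 0.335 against 0.509 to 0.648 CPM, and the 6 fibroblast markers to 8.43 to 9.63 against 10.5 to 12.8 CPM. These sums were higher under the label H295R-PM-Ptc+ and their part in the results was not tested. Replicate 1 of both groups stood apart from replicates 2 and 3 on the second principal component, which held 27.6% of the variance.

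Of the 29 tetraspanins, 23 passed edgeR's filter on low counts and were tested among 16710 genes. With an adjusted p under 0.05 (Benjamini-Hochberg over all genes tested), TSPAN11 and TSPAN13 were higher and TSPAN5 was lower under the label H295R-PM-Ptc+, and the other 20 did not pass. These 3 of 23 (13.0%) stand beside 3.73% of all genes tested, the 2 higher genes beside 2.42% and the 1 lower gene beside 1.32%. At an unadjusted p under 0.05 there were 10 tetraspanins, 7 higher and 3 lower, where 17.3% of all genes reached that limit, 9.6% higher and 7.67% lower. The median log2 fold change of the tested members was 0.12, and the median of its absolute value was 0.17 against 0.13 over all genes. Same-numbered libraries of the groups deviated together, and with the replicate number as a block in the model, 11 of the 23 passed, 8 higher and 3 lower, beside 22.5% of all genes (12.1% higher, 10.4% lower). DESeq2 called 6, with 3 higher and 3 lower, where it called 5.45% of all genes, 3.37% higher and 2.08% lower. Without replicate 1 of both groups, 7 of 23 tested tetraspanins passed, beside 12.01% of 16756 genes.

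**Figure D1:**
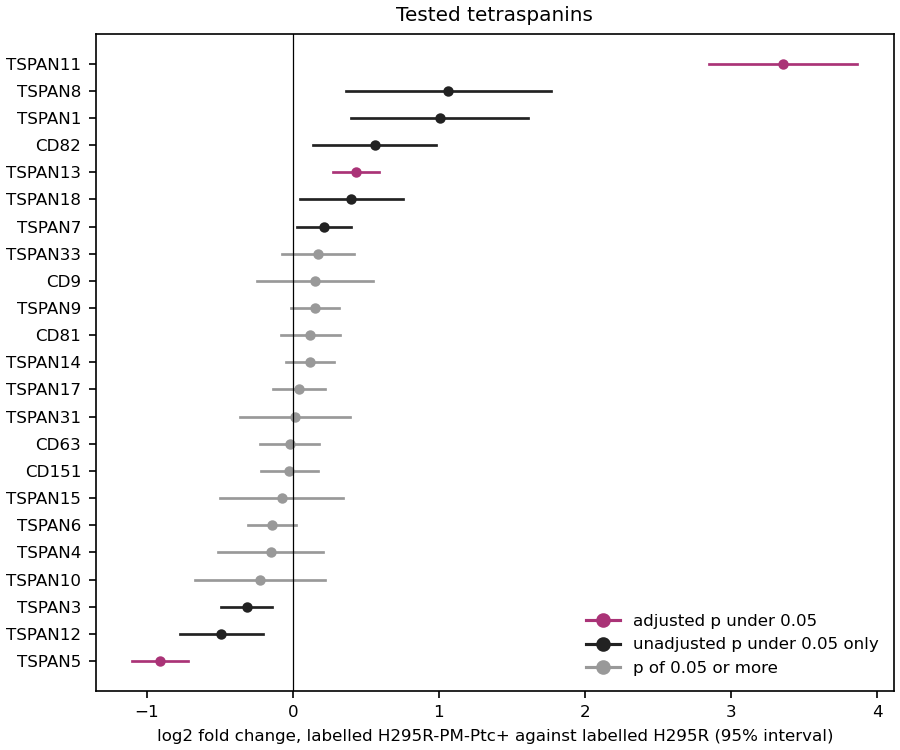
Log2 fold change of the 23 tested tetraspanins, label H295R-PM-Ptc+ over label H295R, with 95% intervals from the edgeR fit. TSPAN11 stands far to the right at 3.36 and TSPAN5 lies farthest to the left at -0.91, while most other members lie near 0.

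TSPAN11, a little studied member and a sequence relative of the integrin partner CD151, showed the largest difference of the family. It lies on chromosome 12 from 30926428 to 30996599 on the plus strand (hg38). The libraries labelled H295R held 53, 29 and 34 counts and those labelled H295R-PM-Ptc+ 470, 334 and 384. The lowest library of the second group thus held several times the counts of the highest library of the first. In CPM these are 1.58 ± 0.566 and 16.1 ± 2.51 (SD, n = 3 each). The log2 fold change was 3.36 (SE 0.225, adjusted p = 3.25e-04 by edgeR), a 10.2-fold difference with a 95% interval of 2.85 to 3.87 on the log2 scale. It kept this side of the threshold with each library left out in turn, at 3.17 to 3.68 (log2). In bulk RNA, a larger share of cells that express a gene and more RNA of it per cell cannot be told apart.

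TSPAN11 made up 0.107%, 0.0616% and 0.0728% of all tetraspanin counts in the libraries labelled H295R and 0.915%, 0.738% and 0.877% in the others. Per kilobase of exon it ranked 23rd of the 29 members in the first group and 16th in the second, where its libraries overlapped those of both its neighbors in the order, TSPAN4 and TSPAN5. In the first group they overlapped those of TSPAN8. On the opposite strand, the exons of TSPAN11 overlap RP11-551L14.4, which had at most 12 counts in any library. The counting was set to use strand.

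TSPAN5, which escorts ADAM10 as a member of the TspanC8 subgroup, was lower under the label H295R-PM-Ptc+. It lies on the minus strand of chromosome 4 from 98470367 to 98658629. Its counts were 655, 643 and 678 in the libraries labelled H295R and 377, 356 and 314 in those labelled H295R-PM-Ptc+, or 26.7 ± 1.22 and 14.2 ± 0.600 CPM (SD, n = 3 each). The groups did not overlap, and the replicates within each group lay close together. The fitted log2 fold change was -0.91 (SE 0.0843, adjusted p = 8.75e-04 by edgeR), so the level labelled H295R was 1.88-fold the other. Each fit without 1 library gave an adjusted p under 0.05, with log2 fold changes of -0.95 to -0.89.

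Of the 6 TspanC8 genes, TSPAN5 alone passed the test. TSPAN17 was the most abundant of them per kilobase, at 20.0 ± 1.41 and 20.6 ± 0.623 CPM per kilobase of exon in the libraries labelled H295R and H295R-PM-Ptc+ (SD, n = 3 each), with a log2 fold change of 0.04 and a 95% interval of -0.13 to 0.22. The log2 fold changes of TSPAN33 (0.17), TSPAN14 (0.12), TSPAN15 (-0.08) and TSPAN10 (-0.23) had intervals that all included 0. The sum of the 6 genes per kilobase was 33.5 ± 2.00 against 33.2 ± 0.969 CPM per kilobase. Within that sum, TSPAN5 took 10.4%, 10.9% and 10.9% in the libraries labelled H295R and 5.83%, 5.99% and 5.47% in the others. ADAM10 itself had 141 ± 20.1 and 156 ± 13.7 CPM, and its groups overlapped. On the log2 scale it differed by 0.14 with a 95% interval of -0.12 to 0.41 (adjusted p = 0.606 by edgeR, and 0.0340 with the block). The ratios of same-numbered replicates of ADAM10 were 0.25, 0.06 and 0.14 on the log2 scale. The fitted value moved with single libraries. It was 0.027 when H295R replicate 1 was dropped, 0.078 when H295R-PM-Ptc+ replicate 3 was and 0.126 to 0.204 when another was (log2). Without replicate 1 of both groups it did not pass (adjusted p = 0.273).

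TSPAN13, a broadly expressed member whose partners are less well defined, was higher under the label H295R-PM-Ptc+. It lies on the plus strand of chromosome 7 from 16753535 to 16784536. It held 1999, 2290 and 2218 counts in the libraries labelled H295R and 2986, 2991 and 2748 in the others, which are 87.9 ± 3.63 and 119 ± 1.75 CPM (SD, n = 3 each). The difference was modest and even, since the ratios of same-numbered replicates were 0.48, 0.42 and 0.40 on the log2 scale. Its fitted log2 fold change was 0.43 (SE 0.0701, adjusted p = 0.0118 by edgeR), which is 35.0% more. Leaving out H295R replicate 3 raised the adjusted p to 0.0690. It was 0.0705 when H295R-PM-Ptc+ replicate 2 was dropped, and 0.0745 when H295R-PM-Ptc+ replicate 3 was.

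**Figure D2:**
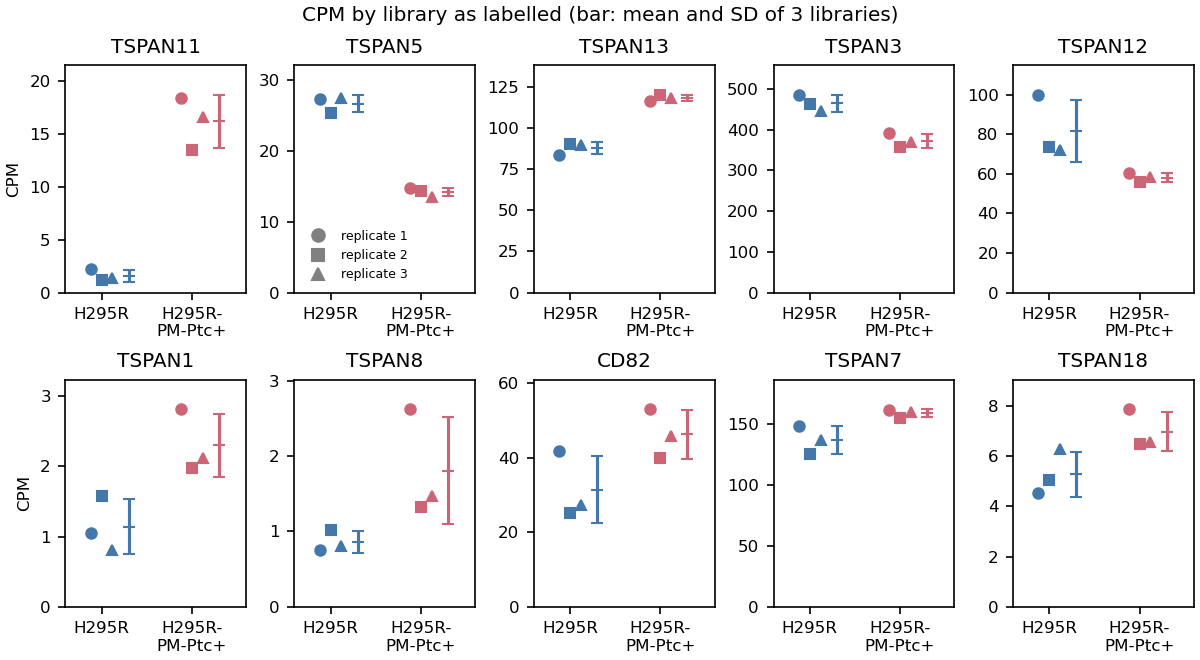
CPM in each library for the 10 tetraspanins with an unadjusted p under 0.05, by labelled group, with the replicate number as the marker and the mean and SD of 3 libraries beside them. In TSPAN11, TSPAN5 and TSPAN13 the points of the groups are far apart relative to their spread, and in CD82 they overlap.

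The RefSeq promoters of the 3 genes that passed are shown because each lies just before a RefSeq start of the gene. Each is the 250 bases before the RefSeq start of transcription (GRCh38.p14), read 5′ to 3′ on the strand of the gene. TSPAN11 is at chr12:30926498-30926747 on the plus strand, TSPAN5 at chr4:98658612-98658861 on the minus strand and TSPAN13 at chr7:16753505-16753754 on the plus strand. The counted gene begins upstream of that RefSeq start in all 3, so the stretch of TSPAN11 lies wholly inside the counted gene, that of TSPAN13 mostly and that of TSPAN5 only at its end. Capitals in TSPAN11 mark AAGGTCA, the half-site of the adrenal nuclear receptor NR5A1, which lies on the opposite strand there and does not occur in the other two.
TSPAN11: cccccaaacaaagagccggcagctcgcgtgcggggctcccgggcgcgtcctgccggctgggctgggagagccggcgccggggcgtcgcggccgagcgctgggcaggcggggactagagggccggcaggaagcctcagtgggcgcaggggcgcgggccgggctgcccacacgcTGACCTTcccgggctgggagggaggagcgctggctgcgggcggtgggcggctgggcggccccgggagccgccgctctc
TSPAN5: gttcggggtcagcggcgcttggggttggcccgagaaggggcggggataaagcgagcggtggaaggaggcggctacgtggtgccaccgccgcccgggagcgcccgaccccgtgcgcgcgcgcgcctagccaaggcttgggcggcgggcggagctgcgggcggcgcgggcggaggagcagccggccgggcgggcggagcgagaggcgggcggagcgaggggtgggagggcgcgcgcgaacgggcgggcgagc
TSPAN13: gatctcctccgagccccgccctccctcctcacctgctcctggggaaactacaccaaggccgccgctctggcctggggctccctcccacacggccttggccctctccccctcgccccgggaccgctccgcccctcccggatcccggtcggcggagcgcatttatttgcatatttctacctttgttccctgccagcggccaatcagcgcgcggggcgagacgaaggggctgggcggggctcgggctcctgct

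RefSeq promoters were matched for 21 of the 29 members. The NR5A1 half-site, searched on both strands, occurred in those of TSPAN11 and TSPAN1, 2 of 21, and in 3.44% of all 35097 promoters of the same length. In TSPAN11 it begins 78 bases before the start. The GLI motif GACCACCCA, searched on both strands because GLI factors act in the Hedgehog pathway, was found in none of the 21 and in 0.199% of all promoters. TATAAA on the strand of the gene was found in none of the 21 and in 6.80% of all. The observed-to-expected ratios of CG pairs were 0.821, 1.19 and 0.748 in the promoters of TSPAN11, TSPAN5 and TSPAN13, where the median was 0.579 over the 21 members and 0.558 over all promoters. In members that did not pass or were not tested the ratio ran from 0.050 in TSPAN16 and 0.0965 in TSPAN8 to 0.783 in CD63, 0.798 in TSPAN2, 0.930 in TSPAN14 and 1.07 in TSPAN4.

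Within 1 Mb of TSPAN11, 14 other genes were tested, of which 5 had a positive and 9 a negative log2 fold change (median -0.12), where 8328 of all 16710 tested genes had a negative one. TSPAN11 lay 3.47 above that median. Of these neighbors, AMN1 (-0.49, adjusted p = 0.0356) and RP11-467L13.7 (-0.83, adjusted p = 0.0186), named here after their values were seen, passed edgeR's test in the other direction. Around TSPAN5, 2 of 8 tested genes had a positive and 6 a negative value, with a median of -0.14, and none passed. TSPAN5 lay -0.77 from that median (log2). TSPAN13 had 3 tested neighbors with a median of -0.15. One of them, AHR, stood at 0.57 and did not pass (adjusted p = 0.0702 by edgeR).

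**Figure D3:**
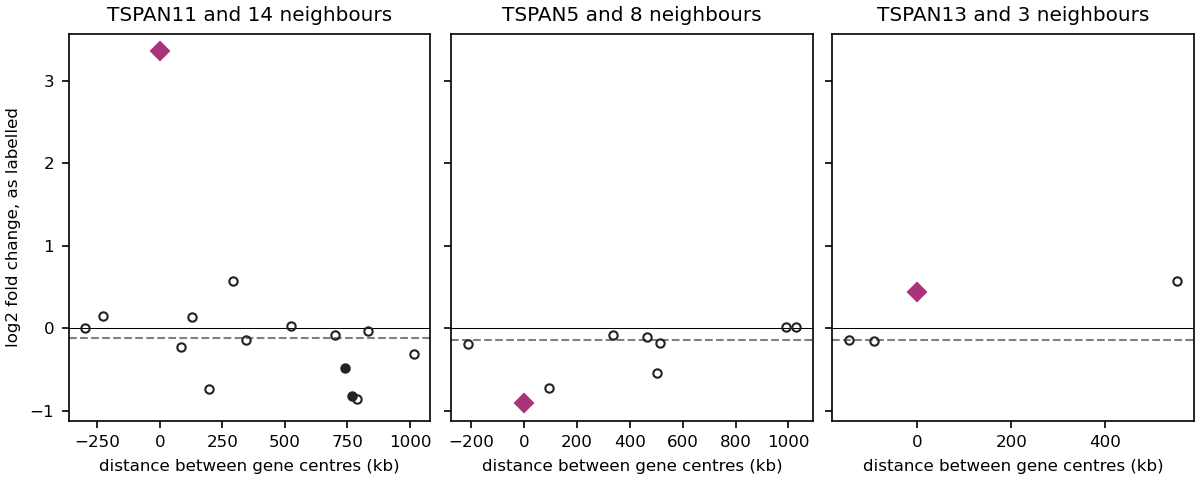
Log2 fold change of TSPAN11, TSPAN5 and TSPAN13 (diamonds) and of the tested genes within 1 Mb of each (circles, filled where the adjusted p was under 0.05), against the distance between gene centers in kb. The dashed line is the median of the neighbors, which lies between -0.15 and -0.12 in all 3 panels.

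TSPAN3, a widely expressed member with the second highest level of the family in the libraries labelled H295R, was close to the threshold. It held 11598, 11749 and 11002 counts there and 10005, 8891 and 8560 under the label H295R-PM-Ptc+, or 464 ± 20.2 and 373 ± 17.1 CPM (SD, n = 3 each). The groups did not overlap. With a log2 fold change of -0.32 (SE 0.0764) it missed the threshold by edgeR (adjusted p = 0.0591). The adjusted p was 5.96e-05 under the block, 0.00960 by DESeq2, 0.00269 without replicate 1 of both groups and 0.0354 with no filter on low counts. It was 0.0536 by limma-voom and 0.0712 to 0.232 with each library left out. Its share of all tetraspanin counts moved from 23.3%, 25.0% and 23.6% to 19.5%, 19.6% and 19.5%.

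TSPAN12 serves as a co-receptor of Norrin signaling, in which the ligand NDP acts through FZD4 and LRP5 to stabilize beta-catenin. Its counts were 2390, 1864 and 1778 in the libraries labelled H295R and 1541, 1389 and 1352 in those labelled H295R-PM-Ptc+. Replicate 1 was the highest library of the first group, and the groups did not overlap. At 81.8 ± 15.8 against 58.2 ± 2.22 CPM (SD, n = 3 each), the log2 fold change was -0.49 (SE 0.126, adjusted p = 0.0719 by edgeR). The adjusted p was 8.68e-05 under the block, 0.0154 by DESeq2 and 0.0417 without H295R replicate 1, where the log2 fold change was -0.32. With any other single library dropped it was 0.0958 to 0.229. It was 0.00436 without replicate 1 of both groups, at a log2 fold change of -0.35, and 0.00353 with no filter on low counts.

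Of the other genes of that complex, LRP5 was lower under the label H295R-PM-Ptc+, with 64.6, 48.9 and 63.2 CPM against 35.6, 39.8 and 42.9 CPM. The groups did not overlap, at 58.9 ± 8.70 against 39.4 ± 3.66 CPM (SD, n = 3 each). The edgeR fit gave a log2 difference of -0.58 (SE 0.120) and an adjusted p of 0.0348. With H295R-PM-Ptc+ replicate 1, 2 or 3 dropped, the adjusted p was 0.0856, 0.120 or 0.0759, and with H295R replicate 3 dropped it was 0.132. FZD4 stood at -0.27 (adjusted p = 0.271), NDP at -0.08 (0.888) and the LRP5 relative LRP6 at 0.18 (0.705). LRP6 passed with the block (0.0111).

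TSPAN1 and TSPAN8, which are best known from epithelia and their tumors, were both rare. TSPAN1 had 25, 40 and 20 counts in the libraries labelled H295R and 72, 49 and 49 in the others. TSPAN8 had 18, 26 and 20 against 67, 33 and 34 counts. In neither gene did the groups overlap, and replicate 1 was the highest library labelled H295R-PM-Ptc+ in both. The log2 fold changes were 1.00 for TSPAN1 (SE 0.268, adjusted p = 0.0820 by edgeR) and 1.07 for TSPAN8 (SE 0.310, adjusted p = 0.105). Under the block their adjusted p was 0.00591 and 0.0104, and with no filter on low counts it was 0.0113 and 0.018. TSPAN1 also passed with DESeq2 (0.0384). Neither passed with a single library dropped, at an adjusted p of 0.0643 to 0.243 for TSPAN1 and 0.121 to 0.273 for TSPAN8. Without replicate 1 of both groups the values were 0.77 and 0.60 (log2, adjusted p = 0.122 and 0.194).

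CD82, first described as a suppressor of metastasis that slows cell migration, held 998, 638 and 675 counts in the libraries labelled H295R and 1355, 993 and 1058 in those labelled H295R-PM-Ptc+. Replicate 1 was the highest library of each group, so that H295R replicate 1 at 41.8 CPM lay above H295R-PM-Ptc+ replicate 2 at 39.9 CPM. Within pairs of the same replicate number, the log2 ratios were 0.34, 0.67 and 0.74. Without regard to pairs, edgeR gave a log2 difference of 0.56 (SE 0.186) and an adjusted p of 0.155. Under the block this p was 2.73e-05, and without H295R replicate 1 it was 0.00488 at a log2 fold change of 0.82. With any other single library dropped it was 0.199 to 0.399, at log2 fold changes of 0.42 to 0.65. It passed without replicate 1 of both groups (0.71, adjusted p = 4.35e-04) and with no filter on low counts (0.00716).

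TSPAN7, known from neurons and an X-linked form of intellectual disability, was abundant. Its libraries had 148, 126 and 137 CPM under the label H295R and 162, 155 and 160 CPM under the other. The means were 137 ± 11.3 and 159 ± 3.38 CPM in the libraries labelled H295R and H295R-PM-Ptc+ (SD, n = 3 each). The log2 fold change was 0.21 (adjusted p = 0.215 by edgeR), and the groups did not overlap. Its exons share bases and strand with the annotated gene TM4SF2, which had no counts, so its counts are uncertain where the annotation overlaps. TSPAN18, which regulates calcium entry in endothelial cells, had 4.52, 5.04 and 6.27 CPM in the libraries labelled H295R and 7.86, 6.48 and 6.57 CPM in the others, without overlap. The means of 5.28 ± 0.899 and 6.97 ± 0.776 CPM differed by 0.40 on the log2 scale (adjusted p = 0.230 by edgeR). Under the block the adjusted p of TSPAN7 was 0.00312 and that of TSPAN18 0.0420. Neither passed with a single library dropped (adjusted p = 0.0832 to 0.494 for TSPAN7 and 0.194 to 0.422 for TSPAN18). Without replicate 1 of both groups TSPAN7 passed (0.0142), and TSPAN18 stood at 0.21 (log2) and did not (0.407). The exons of TSPAN18 overlap TP53I11 on the other strand, which had up to 639 counts.

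In CPM, the groups did not overlap in 11 of the 23 tested members, 7 of them higher and 4 lower under the label H295R-PM-Ptc+, beside 23.5% of all genes tested (12.4% higher, 11.2% lower). Besides those named above, these include TSPAN9 and TSPAN6. TSPAN9, abundant in platelets, had 48.0, 45.6 and 50.2 CPM against 52.3, 52.1 and 55.2 CPM, a log2 fold change of 0.15 (adjusted p = 0.342 by edgeR) that passed with the replicate block (0.0477). TSPAN6 had 67.3, 73.1 and 67.1 CPM against 65.1, 61.8 and 61.3 CPM, a log2 fold change of -0.14 (adjusted p = 0.374 by edgeR).

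**Figure D4:**
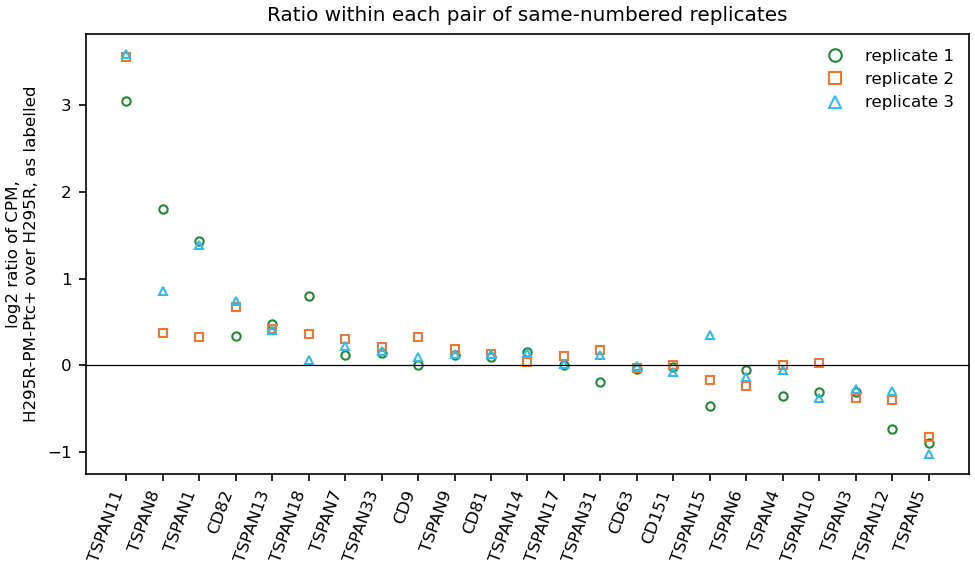
Log2 ratio of CPM within each pair of same-numbered replicates, labelled H295R-PM-Ptc+ over labelled H295R, for the 23 tested tetraspanins in order of their fitted log2 fold change. The 3 ratios of TSPAN13, TSPAN3 and CD63 lie close together, while those of TSPAN8 run from 0.37 to 1.80.

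Per kilobase of exon, CD63, which marks lysosomes and secreted vesicles, was the most abundant member in every library. It had 223 ± 17.2 CPM per kilobase in the libraries labelled H295R and 220 ± 15.5 in the others (SD, n = 3 each). Its counts were 15269, 14092 and 14038 against 15935, 13546 and 13094, and it made up 29.9% to 31.0% of all tetraspanin counts. The log2 fold change was -0.02, with a 95% interval of -0.23 to 0.18 (adjusted p = 0.935 by edgeR). In the libraries labelled H295R it was followed by TSPAN3 (54.6 ± 2.38), TSPAN7 (44.0 ± 3.63), TSPAN13 (39.5 ± 1.63) and TSPAN12 (24.3 ± 4.70, all CPM per kilobase), of which TSPAN7 and TSPAN13 overlapped in their libraries. Under the label H295R-PM-Ptc+ the order after CD63 was TSPAN13 (53.3 ± 0.785), TSPAN7 (51.0 ± 1.09), TSPAN3 (43.8 ± 2.01) and TSPAN17 (20.6 ± 0.623), and TSPAN17 overlapped with CD81. Farther down, several neighbors in the order of the libraries labelled H295R also overlapped, as did TSPAN17 and CD81, TSPAN9 and CD82, TSPAN33 and TSPAN31, TSPAN14 and TSPAN4, and the run of TSPAN1, TSPAN10, TSPAN8 and TSPAN11 at 0.222 to 0.483 CPM per kilobase. The exon length is the union over all isoforms, so a gene with many isoforms, such as TSPAN14 with 17888 bases, has a low level by this measure.

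**Figure D5:**
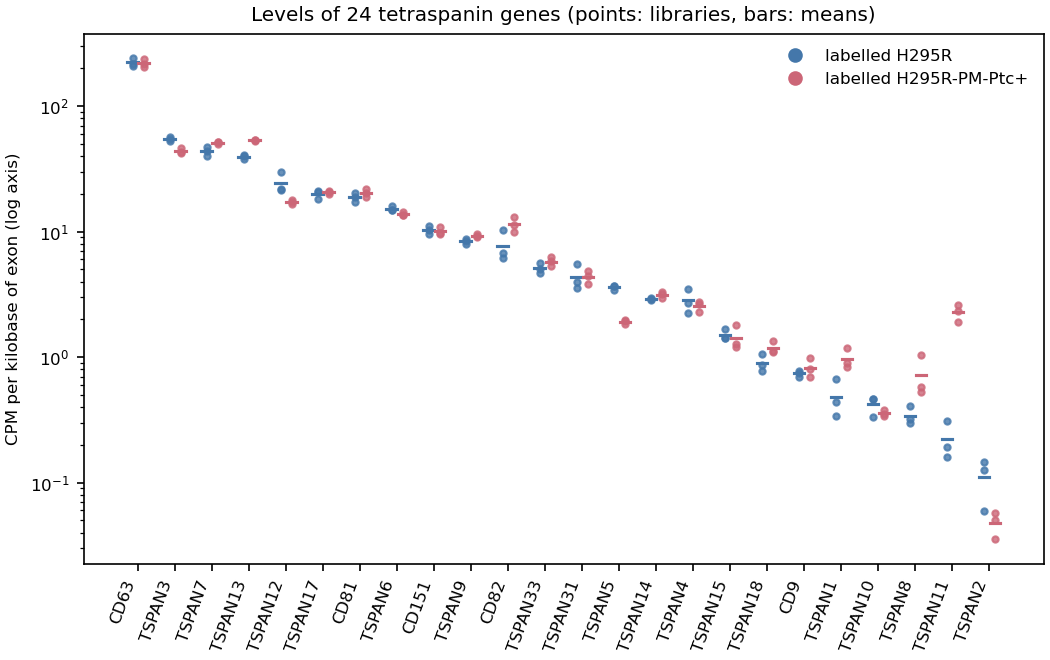
CPM per kilobase of exon (log axis) in each library for the 24 tetraspanins with the highest levels in the libraries labelled H295R, in that order, with bars at the group means. CD63 is alone at the top, and TSPAN11 rises from 0.222 to 2.27 CPM per kilobase.

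The tetraspanins that are used most often as markers of secreted vesicles showed no difference that passed the test. CD81, an entry factor of hepatitis C virus, had 139 ± 11.6 and 151 ± 10.5 CPM (SD, n = 3 each) and differed by 0.12 on the log2 scale (95% interval -0.08 to 0.32). CD9, which acts in membrane fusion of gametes, was rare at 55, 65 and 61 against 59, 80 and 61 counts, with a log2 fold change of 0.15 and an interval of -0.24 to 0.55. CD151, which binds laminin-binding integrins, had 40.5 ± 2.86 and 39.8 ± 2.70 CPM, a log2 fold change of -0.03 with an interval of -0.22 to 0.17. Over the 13 tested members with an unadjusted p of 0.05 or more, the log2 fold changes ran from -0.23 to 0.17 and the 95% intervals from -0.67 to 0.55. All 29 members together came to 1941 ± 122 and 1907 ± 94.6 CPM in the libraries labelled H295R and H295R-PM-Ptc+, with overlap between the groups.

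The 6 untested members were rare, with at most 12 counts in any library. The limit of detection, taken as 3 counts, was 0.117 to 0.130 CPM per library. TSPAN16 and TSPAN19 had no counts in any library, which allows up to 3 counts in each, and these limits cover counting error only. Among the leukocyte members, CD53 had 1 count in 1 library and CD37 at most 2 counts in any. TSPAN32, of blood cells too, had 0 to 5 counts. TSPAN2, known from the myelinating cells of the brain, had 12, 11 and 5 counts in the libraries labelled H295R and 5, 3 and 4 in the others. Its groups touched at 5 counts, and in CPM the lowest library of the first (0.202) lay just above the highest of the second (0.196).

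A list of 34 genes was set beside the family. It holds genes that bind or act with tetraspanins and 4 tetraspanins under other names (UPK1A, UPK1B, PRPH2 and ROM1), of which ROM1 alone was tested. Of its 30 tested genes, ITGA5 was higher, and LRP5 was lower, under the label H295R-PM-Ptc+ with an adjusted p under 0.05 by edgeR, 6.67% of the tested beside 3.73% of all genes. The median log2 fold change of the list was 0.03. With the replicate block 13 passed, 10 higher and 3 lower, beside 22.5% of all genes. ITGA5, the fibronectin receptor subunit, had 36.4, 37.9 and 42.5 CPM in the libraries labelled H295R and 51.1, 48.6 and 49.9 CPM in the others. The groups did not overlap, with 38.9 ± 3.16 and 49.9 ± 1.27 CPM (SD, n = 3 each) and a log2 difference of 0.36 (SE 0.0808, adjusted p = 0.0479 by edgeR), and its adjusted p lay between 0.0662 and 0.178 in all 6 fits without 1 library. It was 0.0518 with at least 10 counts in every library.

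By class, 5 of the 6 tested integrin genes had a positive log2 fold change, where 8382 of all 16710 tested genes had one. The shared beta chain ITGB1 stood at -0.10 (adjusted p = 0.696). ITGA3 and ITGA6, laminin-binding partners of CD151, stood at 0.64 (adjusted p = 0.157) and 0.61 (0.0997) on the log2 scale. They passed with the block (0.00109 and 0.00526) and with no filter on low counts, and ITGA6 also with DESeq2 (0.0384). Neither passed with a single library dropped, and both were rare, at 80 to 210 counts. ITGA7, the most abundant alpha chain of the list, had 372 ± 17.7 and 393 ± 41.7 CPM (SD, n = 3 each). It stood at 0.08 (0.753, and 0.303 with the block) and ITGB4 at 0.05 (0.957, and 0.906 with the block). The immunoglobulin partners IGSF8 and PTGFRN stood at 0.34 (adjusted p = 0.0993) and 0.26 (0.462) and passed with the block too (5.52e-04 and 5.05e-04), as did CD101 at 0.73 (0.357, and 0.00704 with the block). IGSF3 of the same class stood at 0.02 and did not pass with the block (0.881). Of the 6 vesicle genes none passed, and the median of their absolute log2 fold changes was 0.05. Among lysosome genes and CD63 partners, LAMP1 stood at 0.18 (adjusted p = 0.252, and 0.00647 with the block) and TIMP1 at 0.20 (0.357, and 0.00738). LAMP2 stood at 0.05 (0.830, and 0.388 with the block). Of the receptor kinases, MET stood at -0.22 (0.233, and 0.0109 with the block) and EGFR at -0.20 (0.787, and 0.222). The palmitoyltransferase ZDHHC2, which attaches fatty acids to CD9 and CD151, stood at -0.46 (adjusted p = 0.0564, and 7.85e-04 with the block), and ZDHHC3 at -0.06 (0.720, and 0.359 with the block).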

How the data were processed

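RNA of 3 replicates of each population was sequenced as paired reads from stranded libraries. The authors mapped the reads to hg38 with STAR 2.4.0a and used featureCounts to count fragments for each gene name (strand option 1, primary positions of multiply mapped reads kept) on an Ensembl annotation. The deposited values are raw counts without normalization. A row without a gene name, which lists spike-in sequences, held 0 counts and was left out. Groups and replicate numbers were taken from the labels.

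Counts were normalized with TMM and tested 3 against 3 by the two-sided quasi-likelihood test of edgeR 4.0.16 (R 4.3.3), after filterByExpr and with no term but the group, adjusted over all tested genes by the Benjamini-Hochberg method. CPM use the TMM-scaled library sizes. The test was tested on simulated counts first. Between same-numbered replicates, deviations from the mean of the group had correlations of 0.497, 0.307 and 0.228 over genes. Between unlike numbers they were -0.352 to -0.25 where replicate 1 took part, and 0.15 and 0.109 between replicates 2 and 3. The numbers were taken to pair the groups, which is clearest for replicate 1. The labels give same-numbered libraries of both groups a shared code, whose meaning they do not state. Alternatives were DESeq2 1.42.0, limma-voom (limma 3.58.1), relative log expression factors, no filter or 10 counts in every library, the replicate block, each library left out and, chosen after seeing the data, both libraries of replicate 1 left out. Members named with values are those with an adjusted or unadjusted p under 0.05, with no overlap between groups or among the 5 highest levels, and of the associated genes those with an adjusted p under 0.05 and ADAM10. Other genes were named after their values were seen. The members and lists were chosen with earlier results of these data known.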

Additional observations from a re-analysis of the deposited data

How the results depend on the processing

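The number of tetraspanins that passed (3, with 2 higher and 1 lower) depended on the test. It was 6 with DESeq2 (3 lower), 8 of 27 tested with no filter on low counts (5 higher, 3 lower, beside 3.59% of genes), 11 with the replicate block (8 higher, 3 lower) and 7 without both libraries of replicate 1 (4 higher, 3 lower), an alternative chosen after seeing the data. With each library left out in turn it ran from 2 to 5 (1 to 3 higher, 1 to 2 lower), with 5 without H295R replicate 1. TSPAN11 and TSPAN5 passed in all 14 fits. Over all genes, the 624 calls became 1111 of 30966 tested with no filter, 3758 with the replicate block, 2013 of 16756 without both libraries of replicate 1 and 219 to 810 with each library left out. The 2 associated genes became 4 with DESeq2, 5 with no filter, 1 with at least 10 counts in every library, 13 with the block, 6 without both libraries of replicate 1 and 0 to 1 with each library left out. PTCH1 lay between -0.91 and -0.67 (log2) with each library left out, with an adjusted p of 0.00637 to 0.0921. Of the 16 genes followed across settings, CD63 alone changed sign, with a range of -0.088 to 0.041 as each library was left out (0.041 with H295R replicate 1 dropped, and 0.018 with H295R-PM-Ptc+ replicate 2 dropped), and it passed in none of these fits. The cause of these shifts was not tested. Depth limits the rare members, of which TSPAN16 and TSPAN19 had no counts.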

Other observations

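Several tetraspanin genes are neighbors in the genome. On chromosome 11, CD151 and TSPAN4 are 2.98 kb apart, with log2 fold changes of -0.03 and -0.15, neither of which passed. TSPAN32 and CD81 are 58.0 kb apart on the same chromosome, with at most 5 counts of the former in any library and 3246 to 4122 of the latter. CD82 and TSPAN18 are 106 kb apart and had log2 fold changes of 0.56 and 0.40. Chromosome 12 holds 7 members, among them TSPAN11 and CD63.

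Some members share bases with a well expressed gene on the other strand, where the counts depend on the strand setting. The exons of TSPAN10, which had 39 to 54 counts, overlap NPLOC4, with up to 6219 counts. Those of TSPAN31 overlap CDK4 and AGAP2, with up to 9841 counts in 1 of them. Those of TSPAN18 overlap TP53I11, with up to 639 counts, and those of CD151 overlap POLR2L and AP006621.8, with up to 1151 counts in 1 of them. None of the 3 members that passed overlaps another gene with more than 12 counts.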
